A study of Mus musculus with 15 samples.

Results

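Malat1, Neat1 and 6 small nucleolar RNA (snoRNA) host genes, Snhg1, Snhg5, Snhg6, Snhg8, Snhg12 and Gas5, were followed across mouse glioma and healthy brain. These 8 long non-coding genes were picked by name from 23633 genes that had an assembled transcript in at least 1 library. RNA-seq had been made from 15 samples of C57BL/6 mice, 3 in each of 5 groups. The tumor groups were mice bearing GL261, a mouse glioma line, left untreated (0 µg) or given B20.4.1.1, an antibody that blocks VEGF-A, at 50, 100 or 200 µg per dose. The antibody was given every 3 days from day 10 of tumor growth up to the endpoint. The remaining group was healthy brain. Per the labels' protocols, tumors were collected after perfusion with PBS and libraries were built from 1 µg of total RNA. The labels name no control injection. The age and sex of the mice are not given in the sources used here, and a tumor sample holds glioma cells together with the host cells around them. The agent tag of 4 tumor libraries, replicate 3 of each tumor group, disagreed with the title by which they were grouped.

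Malat1 RNA is among the most abundant nuclear RNAs of mammalian cells and sits in nuclear speckles, bodies rich in splicing factors. Neat1 is the RNA scaffold of paraspeckles and is made as a short isoform and a long one that share their 5′ end, of which the long one is needed to build the body. The snoRNA host genes have another design. Their exons are spliced into an RNA with little or no coding capacity, often removed by nonsense-mediated decay, while their introns carry snoRNAs. Box C/D snoRNAs guide ribose methylation of ribosomal RNA and box H/ACA snoRNAs guide pseudouridylation, so the products of these introns belong to ribosome production.

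The sequences at the start sites are given first. RefSeq promoter windows (GRCm38.p6) were found for 6 of the 8 members, Neat1 and Snhg6 being the others. Each is printed 5′ to 3′ on the gene's strand from 45 bases before the start to 25 bases from it, with TATA between positions -40 and -20 and CTTT between positions -5 and 20 in capitals. For Gas5, which has 2 RefSeq starts, the one used by 15 of its 25 annotated isoforms (within 100 bases) is shown.
Snhg1, chr19:8723442-8723511, plus strand: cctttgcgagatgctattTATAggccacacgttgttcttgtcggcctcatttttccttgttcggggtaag
Snhg5, chr9:88522873-88522942, minus strand: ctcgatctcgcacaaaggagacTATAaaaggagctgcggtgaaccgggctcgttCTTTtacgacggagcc
Snhg8, chr3:123508312-123508381, minus strand: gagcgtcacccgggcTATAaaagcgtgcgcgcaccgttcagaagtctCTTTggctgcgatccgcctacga
Snhg12, chr4:132308633-132308702, plus strand: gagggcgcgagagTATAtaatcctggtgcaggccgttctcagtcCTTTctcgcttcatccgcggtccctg
Gas5, chr1:161035121-161035190, plus strand: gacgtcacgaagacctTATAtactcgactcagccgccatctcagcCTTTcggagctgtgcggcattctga
Malat1, chr19:5802648-5802717, minus strand: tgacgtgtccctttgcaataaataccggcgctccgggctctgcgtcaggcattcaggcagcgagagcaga

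All 5 host windows held TATA, a motif of 4 letters that reads the same on both strands, and the Malat1 window did not hold these exact letters. Looser versions of the motif were not searched for. TATA stood in that interval in 5.49% of 32851 RefSeq promoter windows. CTTT was in 4 of the 5 host windows, Snhg1 being the exception, against 9.55% of all windows on the gene's strand and 18.1% on either strand. Host transcripts of this kind are known to begin with a run of pyrimidines, as the mRNAs of ribosomal proteins do. These matches describe letters in the windows and are not evidence of binding. Their bearing on the levels of the hosts was not tested.

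The snoRNAs that mark the differences between hosts in the assembled transcripts are printed next, from the GENCODE M21 transcripts (GRCm38), 5′ to 3′. Capitals mark the box C core TGATGA near the 5′ end and the last box D core CTGA, or for Snora24 the ACA that stands 3 bases from the 3′ end.
Gm25855 in Snhg1, chr19:8723993-8724064, plus strand: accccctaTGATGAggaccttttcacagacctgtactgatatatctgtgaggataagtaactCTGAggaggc
Gm26224 in Gas5, chr1:161035394-161035473, plus strand: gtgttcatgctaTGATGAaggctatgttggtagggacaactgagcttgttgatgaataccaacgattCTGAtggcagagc
Snord50a in Snhg5, chr9:88521529-88521600, minus strand: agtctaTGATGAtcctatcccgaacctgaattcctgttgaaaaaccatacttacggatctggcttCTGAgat
Snord50b in Snhg5, chr9:88521797-88521868, minus strand: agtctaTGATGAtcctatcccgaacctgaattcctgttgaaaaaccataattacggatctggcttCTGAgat
Snord87 in Snhg6, chr1:9942463-9942549, minus strand: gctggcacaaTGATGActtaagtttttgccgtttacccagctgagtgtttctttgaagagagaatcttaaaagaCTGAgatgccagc
Snora24 in Snhg8, chr3:123507937-123508066, minus strand: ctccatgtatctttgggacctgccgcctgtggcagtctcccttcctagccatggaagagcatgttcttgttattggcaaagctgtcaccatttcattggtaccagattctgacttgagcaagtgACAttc

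Snord50a and Snord50b, neighbors in Snhg5, shared 71 of 72 bases and differed by C50A (Snord50a base first, counted from 1 at the 5′ end). The snoRNAs were not measured on their own, and every level below is that of assembled transcripts on the host exons. Where such an exon holds a snoRNA, fragments of the snoRNA itself could not be told apart from the host RNA.

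Values are FPKM, fragments scaled to transcript length and to the number of mapped fragments, which can be compared between genes. To get 1 value per gene, the FPKM of each assembled transcript was weighted by the part of the exonic length it covered, and these were added up. The deposited transcripts held 6.10 to 22.1 fold base coverage per 1 FPKM, the deepest library being healthy brain replicate 3. Each library had been assembled on its own. Spliced transcripts lay on the annotated strand in 48.3% to 49.8% of cases, so strand was ignored, and genes overlapping a member could not be told apart from it. Malat1 overlaps Gm37376, Snhg6 overlaps Mcmdc2, and the hosts contain their own snoRNA genes. None of the 8 genes was listed at 0 in any of the 15 libraries, and none had a near-identical copy among GENCODE transcripts.

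**Figure D1:**
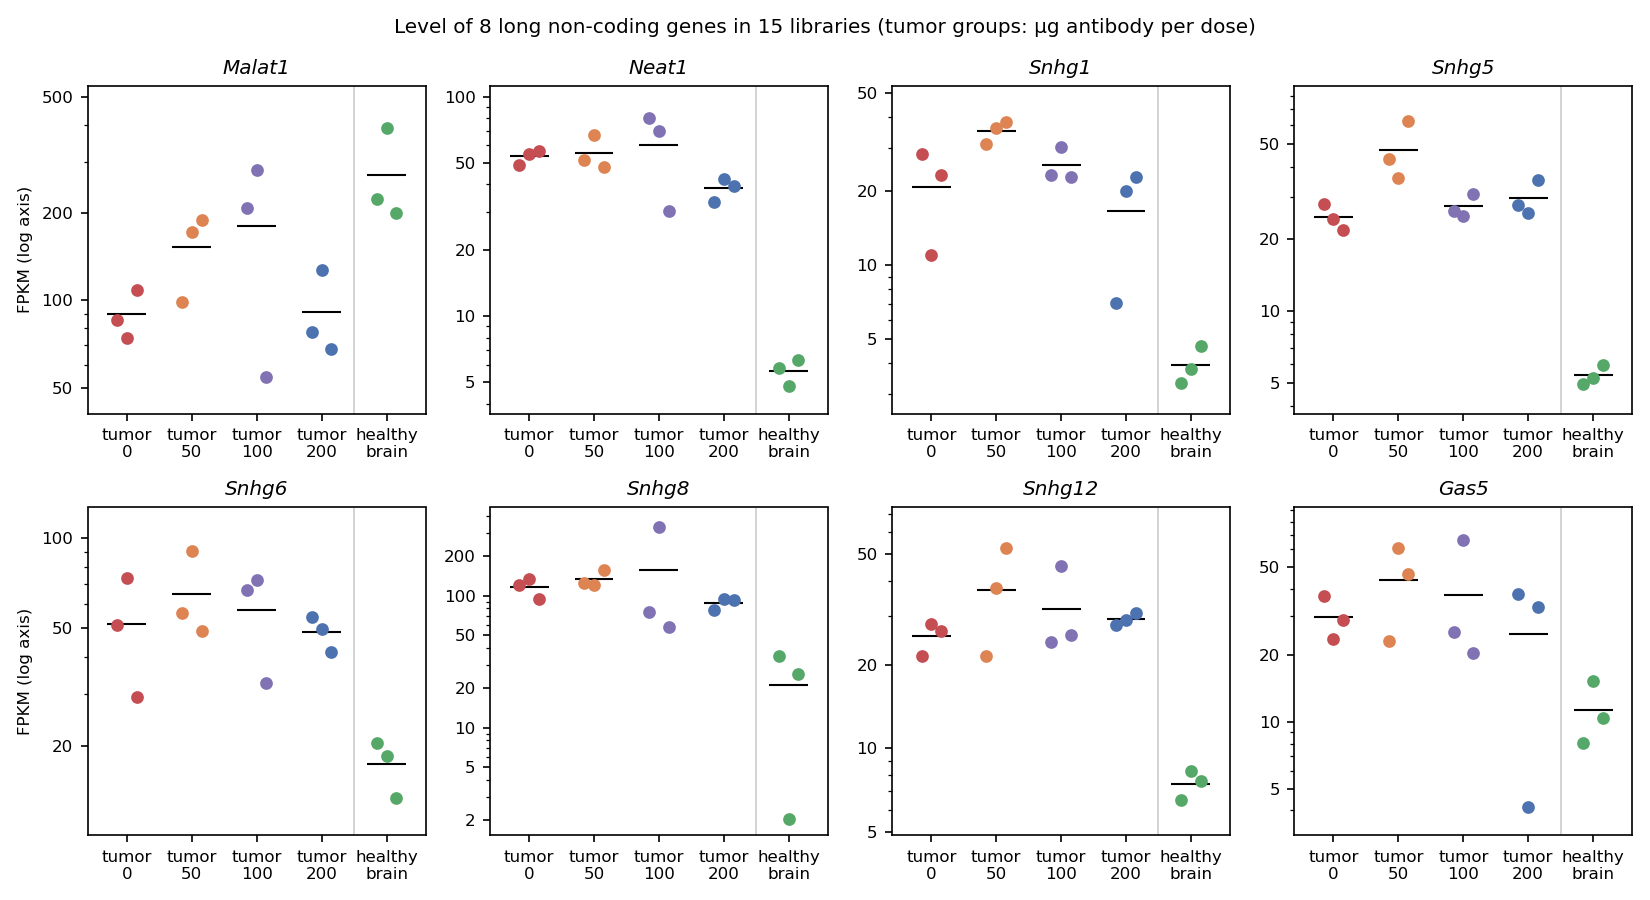
FPKM on log axes for the 8 genes. Each point is 1 library and each line the mean of 3; tumor groups run by antibody dose (µg) with healthy brain at the right of each panel. Neat1 and the 6 host genes lie lower in every brain library than in every untreated tumor library, and Malat1 lies higher.

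The first comparison, untreated tumor against healthy brain, asks how these RNAs differ between a glioma and the tissue it grows in. Neat1 and all 6 snoRNA hosts rose in tumor and Malat1 fell. Thus 8 of 8 genes were called by limma on log2(FPKM + 1) at a Benjamini-Hochberg adjusted p under 0.05, where 62.2% of 15608 tested genes were called (33.4% higher, 28.8% lower). Groups did not overlap for any of the 8, as for 37.6% (every tumor library higher) and 32.0% (every tumor library lower) of genes. The median log2 difference of the 8 was 1.82, beside 0.13 for all genes tested. Because so large a share of genes changed, the count of 8 carries little by itself, and the sizes and library values follow. In bulk tissue, fewer cells of a type and less RNA per cell cannot be told apart.

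Malat1, at chr19:5795690-5802672 on the minus strand, is annotated as a single merged exon of 6983 bases. It had 85.8, 74.1 and 109 FPKM in untreated tumors, against 223, 389.7 and 199.5 FPKM in healthy brain. Every tumor library was below every brain library, and the brain libraries spread more widely (89.5 ± 17.6 FPKM in untreated tumors and 271 ± 104 FPKM in brain, SD, n = 3 each). Malat1 fell by 1.54 on the log2 scale (SE 0.30, adjusted p = 0.00420 by limma), which left it at 0.344 of the brain level on that scale. It stayed an abundant RNA in both tissues, its mean exceeding that of 98.3% of genes in untreated tumor and 99.7% in brain. The call does not hold under a plain sum, in which the FPKM of transcripts with an annotated splice junction are added without weighting by covered length. Malat1 is then listed at 0 in all 3 brain libraries and in 2 of 3 untreated tumors. Assembled Malat1 transcripts covered 98.0% to 100% of its exonic length in every library.

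Neat1, on the same chromosome at chr19:5824708-5845478, minus strand, showed the reverse. It had 48.9, 55.03 and 56.9 FPKM in untreated tumors, against 5.79, 4.82 and 6.36 FPKM in healthy brain. The groups were tight and far apart, with means of 53.6 ± 4.18 FPKM in untreated tumors and 5.65 ± 0.780 FPKM in brain (SD, n = 3 each). The log2 difference was 3.04 (SE 0.16, adjusted p = 1.85e-05 by limma), or 8.23 times on the log2(FPKM + 1) scale, larger than the difference of 96.2% of genes tested. The plain sum, which lists Neat1 at 0 in 2 untreated tumors and 2 brain libraries, gave 1.09 and no call (adjusted p = 0.623). Malat1 and Neat1 are neighbors and are often described together, yet here they moved in opposite directions.

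Neat1 was then split by position. The 5′ part is the 3004 exonic bases of the annotated short isoform Neat1-202, which the long isoform also holds. The distal part is the remaining 17767 bases of the long isoform, which include the intron of Neat1-202 and a small annotated isoform, Neat1-204. The distal part had 18.0, 15.7 and 19.8 FPKM in untreated tumors, against 0.579, 0.277 and 0.788 FPKM in healthy brain. The 5′ part had 231.9, 287 and 276 FPKM in untreated tumors, against 36.6, 31.7 and 39.3 FPKM in brain. Both parts were higher in every tumor library, by 3.61 (distal) and 2.85 (5′) in mean log2(FPKM + 1). The distal difference exceeded the 5′ difference by 0.76, an excess understated on this scale because all brain distal values were below 1 FPKM. Each of these comparisons reached p = 0.10 in an exact two-sided permutation test, the smallest p that 3 against 3 allows. In both tissues the 5′ part stood far above the distal part. With the boundary moved further downstream, 16599 distal bases remained. Over these the brain libraries had 0.034, 0 and 0 FPKM, against 12.4, 7.11 and 14.8 FPKM in untreated tumors.

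**Figure D2:**
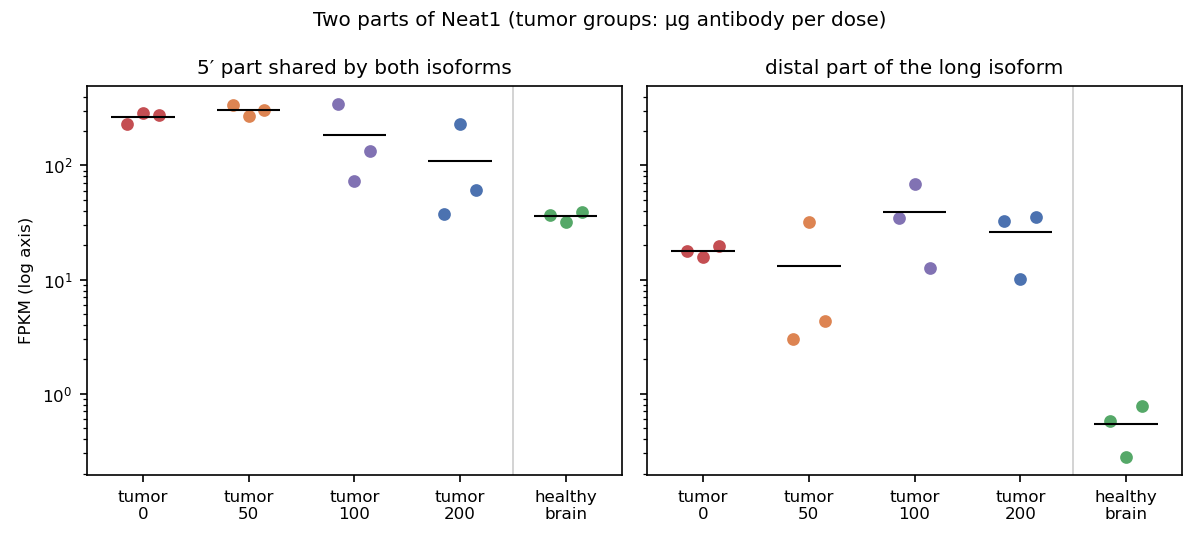
FPKM on a log axis of the 5′ part of Neat1, the exons of the short isoform (left), and of the distal part, the rest of the long isoform (right), with points for libraries and lines for group means. Untreated tumors lie near 265 and 17.9 FPKM on average, above brain at 35.9 and 0.548 FPKM, and the treated groups scatter more.

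Among the hosts, Snhg5 and Snhg12 had the tightest groups. Snhg5 carries the paired Snord50a and Snord50b shown above. It had 28.2, 24.3 and 21.8 FPKM in untreated tumors, against 4.98, 5.25 and 5.96 FPKM in healthy brain, and its log2 difference was 2.01 (SE 0.16, adjusted p = 8.16e-05 by limma). The lowest tumor library stood several times above the highest brain library. Snhg12, which hosts Snora16a, Snora44, Snora61 and Snord99, had 21.4, 28.0 and 26.5 FPKM in untreated tumors, against 6.496, 8.29 and 7.60 FPKM in brain. Its log2 difference was 1.63 (SE 0.17, adjusted p = 0.000265).

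Snhg1, host of 8 annotated snoRNAs, had 28.3, 10.99 and 23.4 FPKM in untreated tumors, against 3.34, 3.802 and 4.71 FPKM in healthy brain. Its log2 difference was 2.06 (SE 0.35, adjusted p = 0.00237 by limma). The low tumor library, replicate 2, is one in which Snhg1 had been assembled as 1 transcript together with its neighbor Slc3a2. With such joined values set to missing the log2 difference was 2.44 (adjusted p = 0.000222).

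Snhg6, host of Snord87, had 51.1, 73.7 and 29.2 FPKM in untreated tumors, against 20.4, 18.5 and 13.4 FPKM in healthy brain. The groups did not overlap, but the tumor libraries spread over more than the gap between the groups, and the log2 difference of 1.43 had an SE of 0.35 (adjusted p = 0.0123 by limma). Gas5 is named for its accumulation in growth-arrested cells and holds 10 annotated snoRNA entries. It had 37.1, 23.7 and 28.8 FPKM in untreated tumors, against 8.06, 15.3 and 10.5 FPKM in brain, a log2 difference of 1.35 (SE 0.27, adjusted p = 0.00524). The Gas5 call was lost under the plain sum (1.39, adjusted p = 0.179) and when isoforms annotated as retained introns were left out of its exons (log2 difference 1.59, adjusted p = 0.0725).

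Snhg8, host of Snora24, had the highest level of the hosts. It had 120.4, 134.8 and 94.5 FPKM in untreated tumors, against 35.2, 2.05 and 25.7 FPKM in healthy brain. Brain replicate 2 stood far below the other two, and there the gene was assembled on 1 strand as a single transcript whose exon contained Snora24. The log2 difference was 3.02 (SE 0.91, adjusted p = 0.0260 by limma). Without brain replicate 2 it was 1.91 (adjusted p = 0.00208), so the size of the difference rests in good part on that 1 library. Leaving out any 1 of the 3 untreated tumor libraries gave 2.91 to 3.16 and ended the call.

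**Figure D3:**
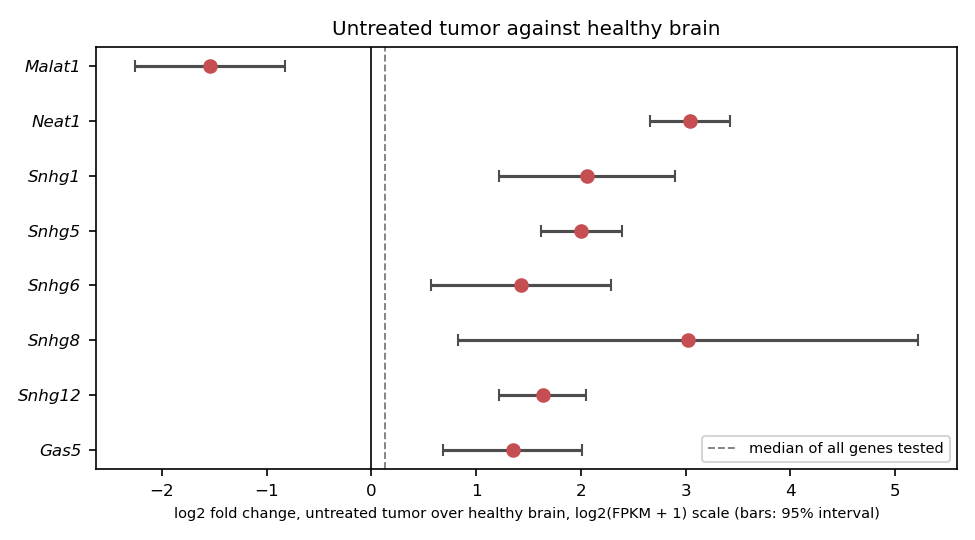
Log2 fold change of untreated tumor over healthy brain for each gene on the log2(FPKM + 1) scale, with 95% intervals from limma. The dashed line is the median of all genes tested (0.13). Malat1 is at -1.54, Neat1 and Snhg8 are near 3, and the other 5 hosts lie between 1.35 and 2.06.

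In untreated tumor the order of mean FPKM was Snhg8 (117), Malat1 (89.5), Neat1 (53.6), Snhg6 (51.4), Gas5 (29.9), Snhg12 (25.3), Snhg5 (24.8) and Snhg1 (20.9). The ranges of each neighboring pair overlapped except that of Malat1 and Neat1. In brain Malat1 (271) was followed by Snhg8 (21.0), Snhg6 (17.5), Gas5 (11.3), Snhg12 (7.46), Neat1 (5.65), Snhg5 (5.40) and Snhg1 (3.95). In brain the ranges of neighbors overlapped except at Malat1 and Snhg8, Snhg12 and Neat1, and Snhg5 and Snhg1. Counting only exons outside retained-intron isoforms shortened Gas5 to 851 bases (3760 with them) and Snhg1 to 865 bases (2969 with them). Their mean levels in untreated tumor were then 62.5 and 42.5 FPKM, against 29.9 and 20.9 FPKM, so the order among hosts rests on which annotated exons are counted.

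The cell makeup of the samples moved with this comparison. The summed level of 6 neuron markers was 5.16 to 8.82 FPKM in untreated tumors, against 891 to 1221 FPKM in healthy brain, and all 6 fell. All 5 dividing-cell markers rose, with sums of 119 to 205 FPKM in untreated tumors and 0.685 to 2.06 FPKM in brain, and 2, 4 and 1 of them were listed at 0 in the brain libraries. Macrophage markers summed to 67.5 to 198 FPKM in untreated tumors and 8.38 to 11 FPKM in brain, with 4 of 5 called higher. Oligodendrocyte markers summed to 46.6 to 74.5 FPKM in untreated tumors and 571 to 638 FPKM in brain (4 of 5 fell), and all 5 astrocyte markers fell. Choroid plexus markers summed to 3.54 to 50.4 FPKM in untreated tumors and spread from 16.2 to 1270 FPKM among the brain libraries. The part of these cell types in the differences of the 8 genes was not tested.

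Genes that share a role with the members were counted from lists. Of 24 protein-coding snoRNA hosts of translation and the nucleolus, 21 rose, 1 fell (Eif4a2) and 2 were not called (Hspa8 and Nop56). Their median log2 difference was 1.80, close to the 1.82 of the 6 non-coding hosts. The ribosomal protein gene Rps20 had 264, 280 and 235 FPKM in untreated tumors, against 14.2, 37.3 and 19.2 FPKM in brain (log2 difference 3.51, adjusted p = 0.000191 by limma). Of 8 core proteins of snoRNA particles, 7 rose and none fell. The largest was Fbl, the methyltransferase of box C/D particles (2.75, adjusted p = 0.00528), followed by Gar1 of the H/ACA particle (2.32, adjusted p = 0.000696).

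The other non-coding snoRNA hosts were mixed. Of 14 listed, 11 were tested, 5 rose and 2 fell. Snhg15, Snhg3, Epb41l4aos, Dancr and Snhg17 rose (log2 differences of 3.02, 2.83, 2.54, 1.29 and 1.05), Snhg15 being listed at 0 in 1 brain library. The fall of Snhg11 was larger than any rise. Snhg11, a host expressed in neurons, had 1.05, 0.559 and 0.495 FPKM in untreated tumors, against 101, 126 and 164.5 FPKM in brain (log2 difference -6.26, adjusted p = 8.38e-06 by limma). Snhg14, which lies in the imprinted Prader-Willi and Angelman region, fell too (-1.14, adjusted p = 0.0343). Snhg3 overlaps the coding gene Rcc1, and without strand the 2 cannot be told apart.

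Paraspeckle proteins moved less than Neat1 itself. Of 10, 4 rose (Nono, Rbm14, Tent4b and Sfpq) and none fell, with a median log2 difference of 0.46. Nono, one of the proteins that bind Neat1, had 130.1, 83.4 and 72.3 FPKM in untreated tumors, against 23.7, 28.9 and 20.2 FPKM in brain (1.90, adjusted p = 0.000937 by limma). Of 10 nuclear speckle proteins, the compartment of Malat1, 3 rose (Srsf1, Srsf2 and Srsf3), Luc7l2 fell, and the median was 0.05. Nonsense-mediated decay factors, whose pathway degrades several host RNAs, had a median of -0.02 over 10 genes, with Smg8 (1.98) among those that rose and Upf2 (-0.93) falling. Of 9 other nuclear long non-coding RNAs tested, 7 fell, Meg3 the most (-6.81), while Tug1 (0.96) and Pvt1 (1.03) rose.

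How the introns that carry snoRNAs were joined was read from the assembled transcripts. There were 27 snoRNA entries within the 6 hosts. A snoRNA counted as inside an exon where all or nearly all of it was exonic, and transcripts holding a smaller part were left out. In the 12 tumor libraries 17 of the 27 entries lay outside the exons of every spanning host transcript counted. Another 2 lay inside an exon in all libraries, and 8 varied. The 2 were Gm25855, the first snoRNA of Snhg1, and Gm26224, the first of Gas5. In both cases 100% of the host FPKM over the snoRNA came from transcripts whose exon contained it, in all 12 tumor libraries. In brain Gm25855 was inside an exon in 1 library, spliced out in another and not covered in the remaining one, and Gm26224 was inside an exon in the only library that covered it.

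Snord50a, at the 3′ side of Snhg5, was the snoRNA with a partial share in all 3 brain libraries, at 14.7%, 19% and 54.3% of host FPKM. It was 0% in all 3 untreated tumors and in 10 of the 12 tumor libraries, the others being 50 µg replicate 2 (10.1%) and 100 µg replicate 1 (13.1%). Its near twin Snord50b was spliced out in all 15 libraries. Snord87 of Snhg6 was also spliced out in all 15 libraries. These shares were described without a test, since Cufflinks lists a small number of transcripts per gene and library.

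**Figure D4:**
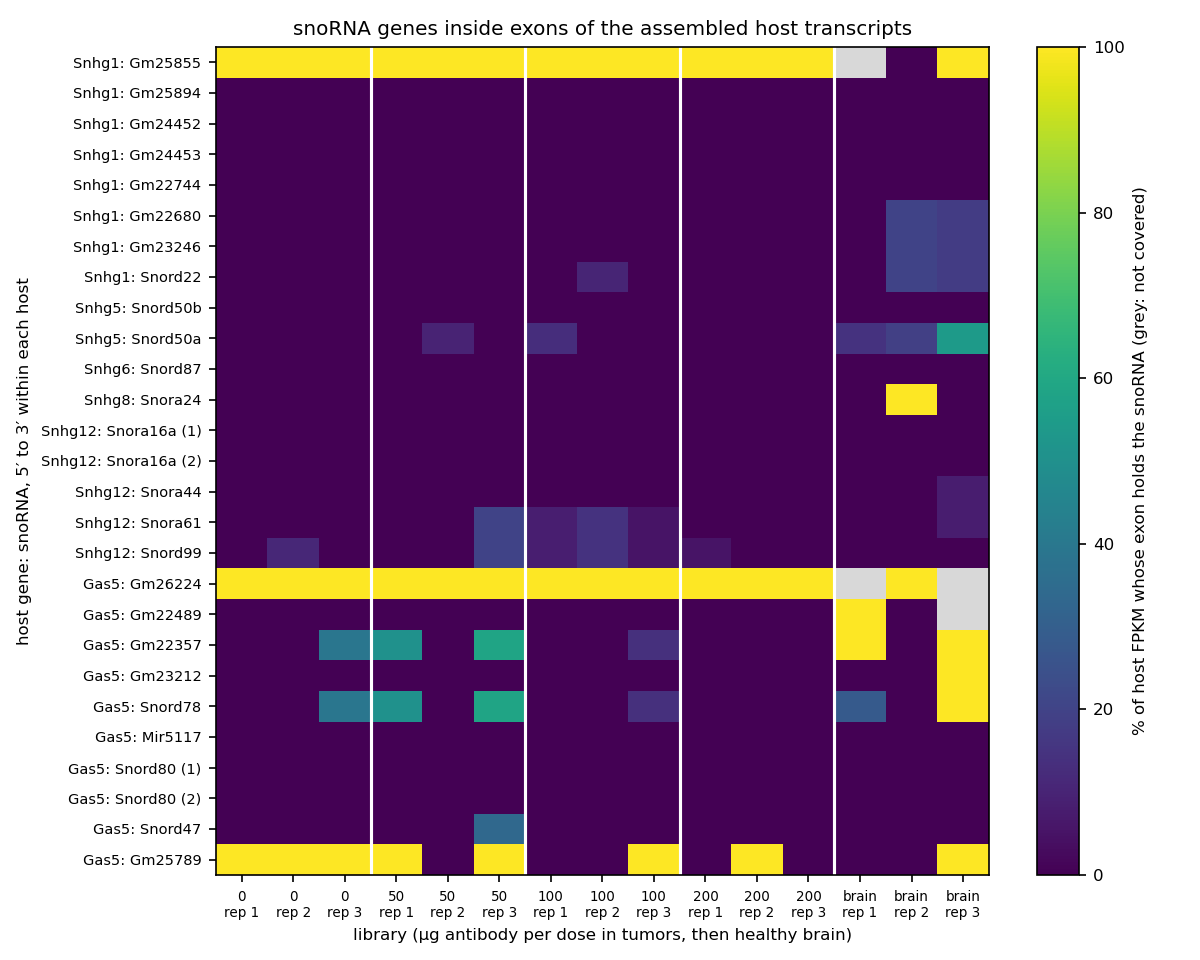
Share of host FPKM whose exon contains the snoRNA, for 27 snoRNA entries (5′ to 3′ within each host) in 12 tumor and 3 brain libraries; grey marks a snoRNA that no transcript covered. Gm25855 and Gm26224 are at 100% across the tumor libraries, while 17 entries are at 0% there.

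The antibody doses were compared with untreated tumor to ask whether blocking VEGF-A changed these RNAs. None of the 8 genes was called at 50, 100 or 200 µg, or for a linear trend over dose, by limma with Benjamini-Hochberg adjustment in a fit of the 12 tumor libraries. The 3 comparisons share their untreated libraries. The background was also low. Of 14014 genes tested, 0% were called at 50 µg and 0.0928% at 100 µg (0.0785% higher, 0.0143% lower). At 200 µg 3.39% were called (2.4% higher, 0.985% lower), and for the trend 8.61% (5.8% higher, 2.8% lower). Members whose groups did not overlap with untreated tumor were 2 at 50 µg, Snhg1 and Snhg5, both higher, as 3.57% of genes were (6.01% were lower). There was none at 100 µg, where 7.59% of genes were higher and 7.14% lower in every library. At 200 µg there were 2, Neat1 and Snhg8, both lower, as 17.4% of genes were (22.1% were higher). At 50 µg 561 genes had an unadjusted p under 0.05, as did 1 of the 8, Snhg5. A p that misses the threshold does not show that levels were equal, and the 95% intervals below are wide.

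At 50 µg all 8 log2 differences were positive, with a median of 0.45 beside -0.07 for all genes. Replicate 3 of that group stood apart, with 50.9% of coding genes in pieces, against 34.7% and 34.4% in replicates 1 and 2, and it held the group's highest Malat1, Snhg1, Snhg5, Snhg8 and Snhg12. Without it all 8 were still positive, with a median of 0.45 beside -0.03. Snhg5 had 43.4, 36.3 and 62.7 FPKM at 50 µg, against 28.2, 24.3 and 21.8 FPKM in untreated tumors. The groups did not overlap, and the log2 difference was 0.88 (95% interval 0.40 to 1.36, adjusted p = 0.894 by limma). With dose taken from the agent tag it was 0.16, and without the 4 libraries whose tag disagrees it was 0.58. Snhg1 had 31.1, 36.0 and 38.2 FPKM at 50 µg, against 28.3, 10.99 and 23.4 FPKM in untreated tumors, again without overlap (0.82, interval -0.10 to 1.73, adjusted p = 0.894). The highest of these, in replicate 3, and the lowest untreated value are both from libraries in which Snhg1 was joined to Slc3a2.

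Malat1 varied widely among the treated tumors. It had 98.9, 171 and 188 FPKM at 50 µg, 207, 279.9 and 54.4 FPKM at 100 µg, and 77.5, 127 and 68.0 FPKM at 200 µg, against 85.8, 74.1 and 109 FPKM in untreated tumors. The 100 µg group held both the highest and the lowest Malat1 level of the 12 tumor libraries. The log2 differences were 0.73 at 50 µg (95% interval -0.43 to 1.89), 0.73 at 100 µg (-0.43 to 1.88) and -0.02 at 200 µg (-1.17 to 1.14).

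Neat1 had 51.4, 66.6 and 47.8 FPKM at 50 µg, 79.9, 70.0 and 30.2 FPKM at 100 µg, and 33.3, 42.2 and 39.3 FPKM at 200 µg, against 48.9, 55.03 and 56.9 FPKM in untreated tumors. At 200 µg every library was below every untreated one. The log2 difference there was -0.48 (95% interval -1.17 to 0.21, adjusted p = 0.364 by limma), and the trend was -0.25 per 100 µg (adjusted p = 0.280). The distal part, the 5′ part and the difference between them gave exact two-sided permutation p-values of 0.10 to 0.50 over the 3 doses. How the locus was assembled bears on the parts, since a transcript over both gives them 1 value. A single transcript covered 95.4% of Neat1 in 100 µg replicate 2, where the 5′ part had 73.5 and the distal part 69.4 FPKM, and 89.7% in 200 µg replicate 1, with 37.8 and 32.6 FPKM. In 200 µg replicate 3 (86.8% covered) they had 61.0 and 35.6 FPKM, and in 100 µg replicate 1 (91.1% covered) 347 and 34.7 FPKM.

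Snhg8 had 77.2, 94.4 and 93.4 FPKM at 200 µg, against 120.4, 134.8 and 94.5 FPKM in untreated tumors. The groups just failed to meet, and the log2 difference was -0.39 (95% interval -1.51 to 0.74). At 100 µg Snhg8 spread from 57.5 to 333 FPKM. Gas5 had 37.7, 4.13 and 33.0 FPKM at 200 µg, against 37.1, 23.7 and 28.8 FPKM in untreated tumors. Replicate 2 stood far below the other two. The log2 difference was -0.69 (95% interval -2.27 to 0.90), and 0.26 without that library. Gas5 also spread widely at the lower doses, with 23.3, 60.9 and 46.7 FPKM at 50 µg and 25.4, 66.3 and 20.6 FPKM at 100 µg.

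Snhg6 had 56.0, 90.6 and 48.9 FPKM at 50 µg, 67.0, 72.3 and 32.6 FPKM at 100 µg, and 54.2, 49.7 and 41.5 FPKM at 200 µg, against 51.1, 73.7 and 29.2 FPKM in untreated tumors. Every dose overlapped the untreated group, and the log2 difference was 0.38 at 50 µg (95% interval -0.47 to 1.23) and 0.00 at 200 µg (-0.84 to 0.85). Snhg12 had 21.4, 37.6 and 52.6 FPKM at 50 µg, 24.2, 45.3 and 25.5 FPKM at 100 µg, and 27.7, 28.9 and 30.7 FPKM at 200 µg, against 21.4, 28.0 and 26.5 FPKM in untreated tumors. Its differences were 0.46 at 50 µg (-0.24 to 1.15) and 0.20 at 200 µg (-0.49 to 0.90). At the higher doses Snhg5 was close to its untreated level, with 26.3, 25.1 and 31.1 FPKM at 100 µg and 27.8, 25.9 and 35.3 FPKM at 200 µg. Snhg1 had 23.2, 30.4 and 22.9 FPKM at 100 µg and 7.05, 20.1 and 22.9 FPKM at 200 µg, the low value being another library in which it was joined to Slc3a2.

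**Figure D5:**
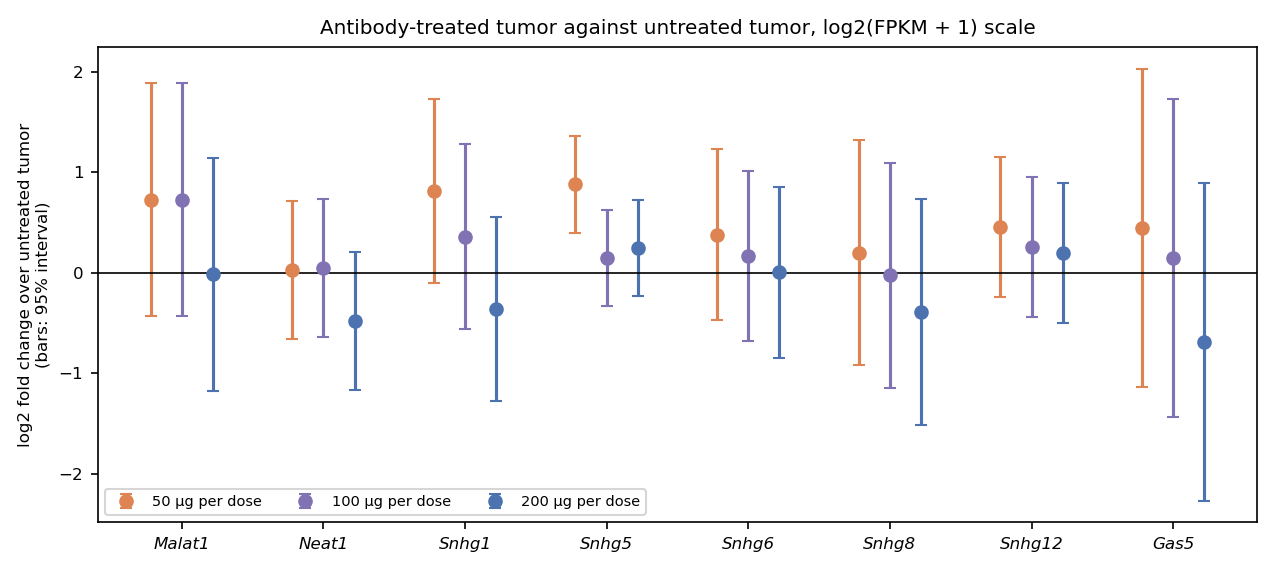
Log2 fold change over untreated tumor at 50, 100 and 200 µg on the log2(FPKM + 1) scale, with 95% intervals from limma. The interval of Snhg5 at 50 µg (0.40 to 1.36) is the one that leaves out 0.

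The assembly itself differed with dose, and between tumor and brain. The share of coding genes listed only in pieces was 51.2%, 40.3% and 26.3% in the brain libraries, against 34.7% to 36.3% in untreated tumors. No term for this was fitted in tumor against brain. Among treated tumors the share was 26.1% to 27.4% in the 200 µg libraries and 26.5% in 100 µg replicate 3. Since all 200 µg libraries lie in that low range, the dose and the assembly cannot be told apart there. With a term for these libraries the 200 µg comparison called 34 genes in place of 475, and the trend 0 in place of 1206. Some cell markers moved at 200 µg too. Microglia markers summed to 27.7 to 36.1 FPKM at 200 µg, against 82.4 to 184 FPKM in untreated tumors. Of the 4 tested, 1 was called lower. Their estimates were 3 negative and 1 positive, with a median log2 difference of -0.38. Of 5 oligodendrocyte markers tested, 2 were called lower, with 4 estimates negative and 1 positive. Tmem119 of microglia, Mag and Cldn11 of oligodendrocytes and Ttr of choroid plexus were called lower, of which Tmem119 was still called with the term. The part of these cell types in the results at 200 µg was not tested.

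Among related genes, Gar1, the H/ACA particle protein, fell at 200 µg. It had 23.6, 20.3 and 19.2 FPKM at 200 µg, against 49.2, 42.5 and 47.9 FPKM in untreated tumors (-1.11, SE 0.23, adjusted p = 0.0343 by limma). Its level in 100 µg replicate 3, the other library with few pieces, was 24.0 FPKM, and with the term for such libraries the call ended (-0.26, adjusted p = 0.777). All 8 snoRNA particle proteins were negative at 200 µg with a median of -0.42, and all 9 other non-coding hosts tested were negative with a median of -0.79, beside 0.04 for all genes. None of those other hosts was called there. In the dose trend Snhg3 fell (-3.10 per 100 µg, adjusted p = 0.0379 by limma). It was listed at 0 in all 3 libraries at 200 µg, in 100 µg replicate 3 and in 50 µg replicate 3. Smg9 (-0.51) and Srsf2 (-0.65) fell in the trend as well. With the term for libraries with few pieces these 3 trend calls ended, at adjusted p of 0.8997, 0.724 and 0.995 for Snhg3, Smg9 and Srsf2.

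The genes whose levels followed each member most closely over the 12 tumor libraries were found by Pearson correlation of log2 values among 6351 genes. These are descriptions, since all points share libraries, depth and assembly. For Malat1 they were Hsbp1 (0.952), Tmem181b-ps (0.946) and Ppp4r1l-ps (0.937). For Neat1 they were Klf2 (0.95), Zfp579 (0.937) and Ccdc71l (0.931). Snhg1 was followed by Lyar (0.941), Ccdc174 (0.775) and Usp21 (0.772), and Snhg5 by Zfp959 (0.909), Gm9057 (0.886) and Gemin2 (0.819). Snhg6 was followed by Zcchc7 (0.827), Chchd7 (0.826) and Pcgf2 (0.820), and Snhg8 by Dpysl2 (0.928), Rpl23 (0.928) and Gm1673 (0.916). Snhg12 was followed by Gm36935 (0.902), Tmem101 (0.883) and Trmu (0.856), and Gas5 by Manbal (0.880), Rbm12b1 (0.865) and Bnip1 (0.831). The members themselves were left out of these candidates. Between members r ran from -0.158 (Neat1 and Snhg5) to 0.771 (Malat1 and Neat1).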

How the data were processed

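RNA-seq libraries of 12 GL261 tumors and 3 healthy brains were analysed. Per the submitters' processing notes, STAR and Cufflinks were used with mm10; versions are not given in the sources used here. For each library the authors deposited 1 transcript assembly with FPKM values, 38194 to 89641 transcripts each; read counts are not used here, and the depth behind a value is known only through the deposited coverage. Transcripts were matched to GENCODE M21 exons (GRCm38) without strand. A gene's FPKM was the sum of transcript FPKM times the share of its exonic length covered; single-exon transcripts under 200 bases were set aside, as were genes with under 200 exonic bases. Tests used limma 3.58.1 (R 4.3.3) on log2(FPKM + 1) for genes with a mean of at least 1 FPKM, with Benjamini-Hochberg adjustment and a threshold of 0.05: 6 libraries for tumor against brain, 12 for doses, with the trend per 100 µg. Differences are on the log2(FPKM + 1) scale and understate changes of low genes. Near-identical copies were sought with minimap2 2.31-r1302, and scripts ran in Python 3.11.15 and were tested on simulated data. Samples were grouped by title. The labels do not say that samples came from separate animals, so p-values measure the spread between samples. Members and gene lists were chosen with earlier results of these data known. The rule for names took all 8 members, genes of the lists that passed the test over all genes (examples of them in the text) and the 3 genes most like each member among those neither joined to, overlapping nor copied from another gene. The uncalled Hspa8 and Nop56 were named after their values were seen. Exons without retained-intron isoforms, joined values set to missing, the pieces term for list genes and the 50 µg comparison without replicate 3 were alternatives chosen after seeing the data.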

Additional observations from a re-analysis of the deposited data

How the results depend on the processing

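None of the 8 genes was called at any dose or in the trend under any alternative run. In tumor against brain, Snhg5 and Snhg12 kept their call and direction under all alternatives. The plain sum takes transcripts by annotated junction and also drops the covered-length weight. It gave Malat1 1.75 (adjusted p = 0.372 by limma), with 37.1 FPKM in untreated replicate 3 and 0 in all other libraries, and ended the calls of Neat1, Snhg8 and Gas5; which of its 2 changes did so was not tested. Using only transcripts that touch no other gene gave Snhg1 -1.87 (adjusted p = 0.000474) and Gas5 -1.20 (adjusted p = 0.375), since exons that hold a snoRNA are dropped, with 11 and 10 of 12 tumor libraries then at 0. It ended the calls of Snhg6 and Snhg8, gave no value for Malat1, left Neat1 below the filter and so untested (0.216 to 0.677 FPKM in untreated tumors and 0 to 0.197 in brain), and called 5535 genes in place of 9703. Median of ratios scaling moved the median of all genes to -0.07, against 0.13, and the 8 calls held.

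Counts of called genes moved as follows, and the cause was not tested. At 50 µg, with 0 called, a pseudocount of 0.1, no filter, the agent tag and leaving out the 4 tagged libraries gave 1 each, touching no other gene gave 2, and the 2 groups alone and the plain sum gave 3 each. At 100 µg, with 13 called, no filter gave 23, the pieces term 34, the 2 groups alone 6, the plain sum 4, touching no other gene 3, the agent tag 2 and leaving out the 4 libraries 40. At 200 µg, with 475 called, these were 34 for the pieces term, 1802 for the 2 groups alone, 57 for the plain sum, 274 for touching no other gene, 9 for the agent tag and 956 without the 4 libraries. For the trend, with 1206 called, they were 0 for the pieces term, 266 for the plain sum, 651 for touching no other gene, 4 for the agent tag and 735 without the 4 libraries. Leaving out 1 library at a time gave 0 to 5 genes at 50 µg, 0 to 35 at 100 µg, 35 to 1241 at 200 µg and 207 to 2047 for the trend. With group means removed, same-numbered samples correlated at -0.07 to 0.12 and differently numbered ones at -0.23 to 0.21. The numbers thus showed no sign of pairing, though such correlations cannot exclude it. With the replicate block 9013 genes were called in tumor against brain, 0 at 50 µg, 0 at 100 µg, 317 at 200 µg and 1015 for the trend.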
